A study of Mus musculus with 2 samples.

Results

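The cells described here are the dividing γδ T cells of the mouse thymus, 211 of the 4351 kept cells of the thymic library and of 12426 kept cells in the whole series. They were chosen by a rule on measured values. A cell was kept with 800 to 4000 detected genes and at most 6% mitochondrial UMIs (unique molecular identifiers, each counted as 1 captured RNA molecule). A kept cell was a member when 10 cell cycle genes, Mki67, Top2a, Birc5, Ccna2, Ube2c, Nusap1, Tpx2, Tk1, Rrm2 and 2810417H13Rik, together had at least 5 UMIs. Levels of these 10 genes are therefore a description of the choice and not a result.

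The series holds 1 library of hepatic and 1 library of thymic γδ T cells from wild type, untreated C57BL/6J mice that were 8 weeks old. CD3e+ TCRγδ+ cells were sorted from both organs, and the thymic suspension had first been depleted with beads against CD4 and CD8. RNA was measured with droplet-based 3′ chemistry as UMI counts per gene and cell. Cells of several mice were pooled, and with 1 library per tissue no test between cells or tissues has replicates. All intervals below are 95% intervals that cover counting error only.

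γδ T cells branch off at the CD4/CD8 double-negative stage of thymic development, once a γδ T cell receptor is expressed. Immature cells carry CD24 on their surface and the transcription factors Sox4 and Sox13, and mature cells lose CD24 and acquire either an interferon-γ (type 1) or an interleukin-17 (type 17) program. A dividing cell copies its DNA in S phase with the MCM helicase, the PCNA clamp and nucleotide-making enzymes. It then passes through G2 into mitosis (M) with cyclin B, Cdc20 and the centromere proteins. E2F factors act on S-phase promoters through E2F sites, and the DREAM and B-Myb/FoxM1 complexes act on G2/M promoters through CHR elements next to CCAAT boxes.

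Promoters of S-phase and G2/M genes that separate the members below are shown first, with letters of those elements marked. They are RefSeq promoters of build GRCm38.p6, on the minus strand in all 4 cases, from 20 bases before the farthest element to the base before the transcription start. Of each list the 2 genes with the highest level in the members that held the element were taken. Capitals mark E2F letters (the letters TTCCCGC, the letters TTGGCGC, the letters TTCGCGC or the letters TTGCCGC, on either strand) in Mcm6 (chr1:128359706-128359834) and Mcm7 (chr5:138171267-138171399), which encode helicase subunits. In Mcm6 each capital run is an E2F match overlapped by another on the opposite strand. Capitals mark CHR letters (the letters TTTGAA or the letters TTCGAA, on either strand) and CCAAT in Ccnb2 (chr9:70421555-70421741), which encodes cyclin B2, and Cdc20 (chr4:118437344-118437416), the activator of the anaphase-promoting complex. In Ccnb2 the CHR letters lie 167 bases before the start and CCAAT at 87, 54 and 21, so they are not adjacent. In Cdc20 they lie at 18, between CCAAT at 53 and 8. CCAAT was not marked in Mcm6 and Mcm7, which hold it on the opposite strand in lower case.
Mcm6: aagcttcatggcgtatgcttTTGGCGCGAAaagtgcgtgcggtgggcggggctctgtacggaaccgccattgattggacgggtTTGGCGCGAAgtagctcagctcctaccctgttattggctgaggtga
Mcm7: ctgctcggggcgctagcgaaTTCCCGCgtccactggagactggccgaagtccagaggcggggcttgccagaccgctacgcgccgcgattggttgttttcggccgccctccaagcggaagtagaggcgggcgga
Ccnb2: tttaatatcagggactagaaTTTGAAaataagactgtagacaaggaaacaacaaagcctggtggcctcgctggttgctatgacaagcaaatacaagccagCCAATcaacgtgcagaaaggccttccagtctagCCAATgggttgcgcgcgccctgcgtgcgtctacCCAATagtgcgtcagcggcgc
Cdc20: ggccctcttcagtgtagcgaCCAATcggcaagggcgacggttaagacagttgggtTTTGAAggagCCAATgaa

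E2F letters lay within 250 bases before the start in 15 of the 31 S-phase genes that had a RefSeq promoter (48.4%) and in 4 of 41 G2/M genes (9.76%). Over all 27025 genes with a promoter the share was 9.01%. CHR letters together with CCAAT lay in 12 G2/M promoters (29.3%) and in 4 S-phase promoters (12.9%), against 7.0% of all genes. CHR letters, with or without CCAAT, were in 31.7% of the G2/M, 19.4% of the S-phase and 19.6% of all promoters. CCAAT was in 82.9%, 64.5% and 37.5%. These are matches of letters and say nothing about binding.

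The 211 members were 4.85% of the kept thymic cells (4.23% to 5.53%). The same rule in the liver found 35 of 8075 kept cells, 0.433% (0.302% to 0.602%). Members held 1979 to 20115 UMIs per cell with a median of 8984, and the other 4140 kept thymic cells held 1253 to 16545 with a median of 3186.5. The median number of detected genes was 2640 in the members and 1305 in the other cells. The limit of 5 panel UMIs is not scaled to depth, so deeper cells reach it more easily. The depth of the members and the shares in both tissues thus rest in part on the rule. With the panel counted after thinning to 2000 UMIs, 108 of 4096 thymic cells reached it (2.64%). Because the members held more UMIs, UMIs were drawn at random down to 2000 per cell for the comparisons of stage and of genes outside the cell cycle, which left 210 members and 3886 others. A second reference was the 1234 other cells with 4000 to 10999 UMIs, weighted to the depth of the 133 members in that range (depth-matched cells). Of these others 558 had 4000 to 4999 UMIs, where 8 members lay. At 8000 to 8999 UMIs there were 34 members and 47 others, at 9000 to 9999 22 and 32, and at 10000 to 10999 19 and 10. Few deep cells thus carry much of the weight of this reference.

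The label was checked on T cell genes. Of the members, 98.6% held a UMI of Cd3g, 97.2% of Cd3d and 95.3% of Cd3e, the invariant chains of the T cell receptor complex. T cell receptor genes are not among the genes of the files used here, so γδ identity rests on the sort. Markers of other cells, counted in thinned cells, were low. The αβ-lineage list of 8 genes summed to 57.1 CPM in the members and 59.6 in the others. CPM are UMIs scaled to a total of 1000000 per group. Cd4, Rag1, Rag2 and Zbtb7b had no UMI in the thinned members. Rag1 had none in the thinned other cells either, and with all UMIs it had 1 UMI in 1 member. The absence of Cd4 says little, since the suspension had been depleted with beads against CD4. The myeloid list of 10 genes summed to 150.0 CPM against 227 in the others, with 7 of 10 genes at 0, and the B cell list of 8 to 23.8 CPM against 32.8, with 6 of 8 at 0. The erythroid list stood at 21.4 CPM against 136, with 4 of 6 at 0. The natural killer and innate lymphoid list stood at 19.0 against 58.4, with 4 of 8 at 0. The epithelial and stromal list stood at 131 against 117, with 4 of 8 at 0. Between the 2 libraries 60 barcodes were shared, 6 of them among the members. A doublet caller (Scrublet) marked 2 of 4351 cells at its own threshold and so has not worked here. Its median score was 0.0561 in the members and 0.0741 in the other cells.

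With all UMIs of the cells, panel counts per member ran from 5 to 85 with a median of 21. The gene found in most members was 2810417H13Rik, which encodes a PCNA-binding factor. It had a UMI in 97.2% of members and in 4.93% of other cells. Top2a, the topoisomerase that untangles copied DNA, was found in 76.3% of members, Birc5 (survivin) in 74.4%, Rrm2, a subunit of ribonucleotide reductase, in 62.1% and Mki67 in 54.0%. S-phase genes outside the panel were higher with each step of the panel count and showed no gap at the limit. The 18 cells at 5 panel UMIs, just inside the limit, held 2467 CPM over 40 S-phase genes (2223 to 2729). The 28 cells at 4, just outside, held 2293 CPM (2081 to 2521). Among the other cells 180 held at least 10 UMIs of the S-phase list, and 107 of these had 1 to 4 panel UMIs. Cells with many S-phase UMIs thus lie on both sides of the limit.

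**Figure D1:**
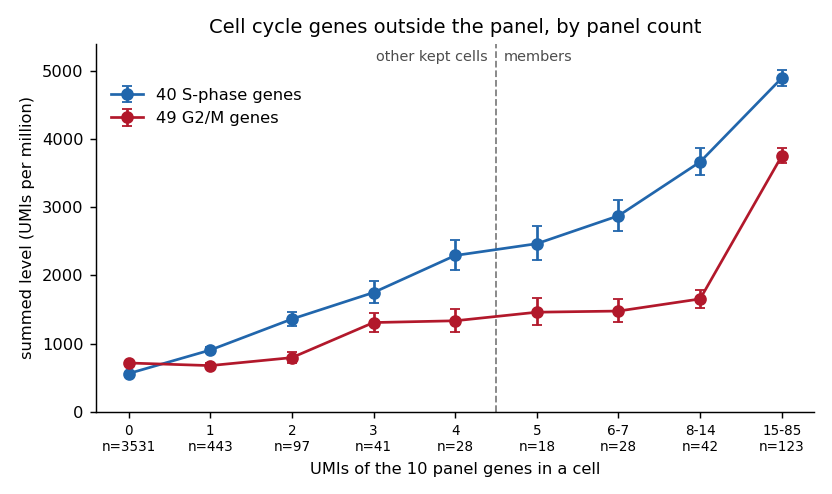
Summed level (CPM, y axis) of 40 S-phase genes (blue) and 49 G2/M genes (red), none of them in the panel, in kept thymic cells grouped by their UMIs of the 10 panel genes (x axis, with the number of cells). Bars are exact Poisson 95% intervals. S-phase genes stood at 559 CPM with no panel UMI, 2293 at 4, 2467 at 5 and 4900 at 15 or more, and G2/M genes at 714, 1334, 1460 and 3756.

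S phase was the most frequent state. Phase was read from the share of S-phase UMIs among the UMIs of the S-phase and G2/M lists in each cell. With at least 70% of them S-phase, 110 of the 211 members were in S, 52.1% (45.2% to 59.0%). With at most 30%, 48 were in G2/M, 22.7% (17.3% to 29.0%), and 53 lay between and are called mixed, 25.1%. No member had fewer than 5 UMIs of the lists. These classes are ranges of a continuous score, since 26 members lay within 5 percentage points of the upper limit and 12 of the lower one. The median depth was 9614.5 UMIs in S, 8841 in mixed and 8344 in G2/M members. Lists and rule read the same process, so the shares describe the cells that the rule finds. In the liver 11 of 35 such cells were in S, 31.4% (16.9% to 49.3%), and 14 in G2/M, 40% (23.9% to 57.9%).

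**Figure D2:**
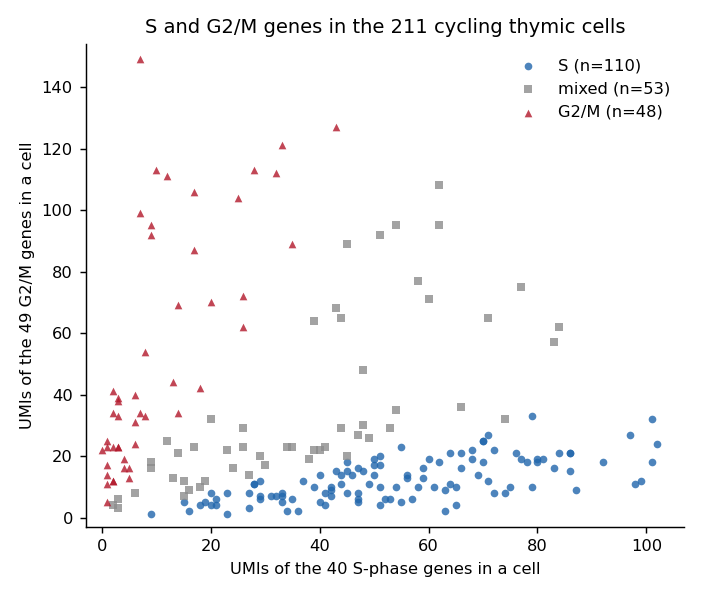
UMIs of the 40 S-phase genes (x axis) against UMIs of the 49 G2/M genes (y axis) in each of the 211 cycling thymic cells, coloured by phase. The 110 S members lie along the x axis, the 48 G2/M members along the y axis, and the 53 mixed members between them.

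Single genes followed the classes in an order that the class definition fixes in part. Replication genes were highest in S. Mcm6 stood at 374 CPM in S, 247 in mixed and 54.2 in G2/M members, and Pcna at 471, 371 and 77.5. Some genes of the G1/S border were lower in mixed than in S members. Ung, a uracil DNA glycosylase, stood at 183, 30.4 and 7.75 CPM, Ccne1 (cyclin E1) at 44.5, 12.2 and 5.17, and E2f1 at 78.2, 16.2 and 2.58. Others were not, such as the licensing factor Cdc6 at 54.5, 56.8 and 15.5 CPM, Ccne2 (cyclin E2) at 30.9, 38.5 and 10.3, and E2f2 at 32.7, 54.7 and 25.8. Tyms, the thymidylate synthase, stood at 261 CPM in S and 209 in mixed members. Mitotic genes ran the other way. Ccnb2 stood at 38.2 CPM in S, 160 in mixed and 444 in G2/M members, Cdc20 at 14.5, 87.2 and 336, and Cenpa, the centromeric histone, at 60.9, 264 and 801. Foxm1, a factor that acts on G2/M promoters, stood at 10.0, 22.3 and 38.7 CPM, and Mybl2 (B-Myb) at 48.2, 34.5 and 10.3. Not every gene of the G2/M list was higher in the members than in other cells. Arl6ip1 stood at 370 CPM (343 to 397) in the members and 393 (383 to 403) in the others.

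G1 regulators split. The kinases Cdk4 and Cdk6, partners of D cyclins, stood at 544 CPM (512 to 578) and 287 (264 to 312) in the members, against 262 and 138 in other cells. Ccnd2 (cyclin D2) stood at 144 CPM (128 to 162) against 333, and Ccnd3 (cyclin D3) at 126 against 121. The brakes Btg1 and Cdkn1b (p27) were lower, at 510 CPM against 1984 and at 57.1 against 109. Cdkn2c (p18) went the other way, at 65.1 CPM (54.4 to 77.4) against 17.8, and Cdkn2d was alike in both, at 94.4 (81.4 to 109) against 93.2. Cdkn1a (p21) was near the limit of counting in both, at 5.55 and 6.70 CPM. The values of this paragraph and the one before use all UMIs of the cells, and the other cells in them are not matched for depth.

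The stage of the members was read from genes outside the cell cycle. The other kept thymic cells were clustered without cell cycle, mitochondrial and ribosomal-protein genes, and each cell was then assigned to the cluster whose profile fitted it best at 2000 UMIs. Of 210 members, 194 (92.4%, 87.9% to 95.6%) were assigned to cluster 3, which took 439 of the 3886 other cells (11.3%). Cluster 3 held 474 other cells, and its 10 leading genes included Nrgn, the MHC class II genes Cd74, H2-Aa, H2-Ab1 and H2-Eb1, Tnfrsf9, Ly6d, Mcm5 and Stmn1. MHC class II genes are also those of antigen-presenting cells, and Cd74 is on the myeloid list. Cd74 stood at 9.52 CPM (2.59 to 24.4) in the members, 49.8 in all other cells and 239 in other cells weighted to the clusters of the members. None of the 5 stage lists was high enough in it to give it a name. Cluster 2, in which transitional markers led beside 3 hemoglobin genes, took 9 members (4.29%), and cluster 1, immature-like by Sox13, Etv5 and Tox2, took 7 (3.33%). No member was assigned to the type 1-like cluster 4, the type 17-like cluster 5 or clusters 0 and 6. Cluster 7 held 101 other cells and had the panel genes Ube2c and 2810417H13Rik among its leading genes. No cell was assigned to it, not even its own, so a likeness of members to cluster 7 could not be read. Cluster 6 scored highest for the type 1 list but held Cd24a at 488 CPM (386 to 608), so it is called by its number. A count of 0 of 210 allows a share of up to 1.43%, taking 3 counts as the limit. The placement depended on the settings, since 8.10% of members fell in mature clusters when 20 principal components were used and 22.4% when cells were assigned by the stage lists alone. Immature clusters took 55 of 210 members when the clustering resolution was 0.4. By the lists, type 1 took 11.2% of members and 12.1% of other cells, and type 17 took 11.2% and 19.5%. Assignment returned 84.1% of the other cells to their own cluster.

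Cluster 3 was also the cluster of cells with much RNA. Its other cells held a median of 5853.5 UMIs, and 42.6% of them had 1 to 4 panel UMIs, against 11.1% of the remaining other cells. RNA content moves with the assignment, and its part in it was not tested. Of all cells assigned to cluster 3, 30.6% were members (27.1% to 34.4%). By phase, 105 of 110 S, 48 of 52 mixed and 41 of 48 G2/M members were assigned there.

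At equal depth every stage list was found less often in the members than in the other cells, and the type 17 list differed most. With cells thinned to 2000 UMIs, 19.5% of members (14.4% to 25.5%) held at least 3 UMIs of the early immature list (Dntt, Cpa3, Tox2, Hes1, Rag1, Ptcra), against 25.8% of other cells. For the transitional list, whose 5 markers include S1pr1, Ccr7, Cd200 and Klf2, the shares were 28.1% (22.1% to 34.7%) and 35.6%. The intervals of members and others overlapped for these 2 lists. Both shares in the members were close to those of the other cells of cluster 3, 19.3% and 30.1%. The intervals of members and all other cells lay apart for the other 3. The type 17 list reached 3 UMIs in 2 of 210 members, 0.952% (0.116% to 3.40%), against 14.7% (13.6% to 15.9%) of other cells. The type 1 list reached it in 6.19% (3.34% to 10.4%) against 13% (12% to 14.1%), and the primed immature list (Sox13, Maf, Blk, Etv5, Hivep3) in 11% (7.07% to 16.0%) against 21.6% (20.3% to 22.9%). In the other cells of cluster 3 these shares were 1.91% (0.877% to 3.60%) for the type 17, 12.7% (9.86% to 16.1%) for the type 1 and 9.13% (6.69% to 12.1%) for the primed list. Without thinning, where the members are deeper, the order of the shares turned for all 5 lists. They were then 62.6% against 39.8% for the early immature, 53.1% against 39.2% for the primed, 77.7% against 57.6% for the transitional, 38.9% against 25.8% for the type 1 and 30.3% against 27.7% for the type 17 list.

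**Figure D3:**
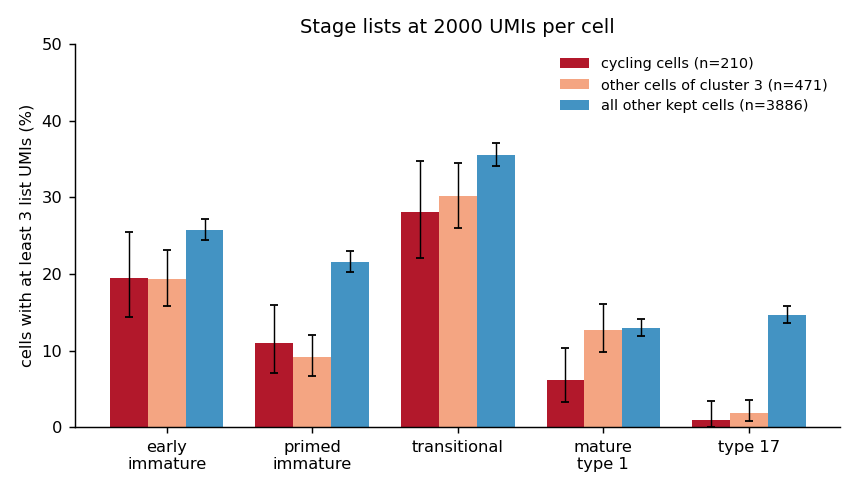
Share of cells (%, y axis) with at least 3 UMIs of each of 5 stage lists after thinning to 2000 UMIs, for 210 cycling cells (dark red), 471 other cells of cluster 3 (light) and all 3886 other kept thymic cells (blue). Bars are exact binomial 95% intervals. The type 17 share was 0.952% in the cycling cells, 1.91% in the other cells of cluster 3 and 14.7% in all other cells, while the early immature shares were 19.5%, 19.3% and 25.8%.

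Genes of immature thymocytes were also counted per cell. With all UMIs counted, Cd24a, the surface marker of immature cells, was found in 176 of 211 members (83.4%), with a lowest value of 0, a median of 3 and a highest of 22 UMIs. At 2000 UMIs it was found in 51.0% of members (44.0% to 57.9%) and 48.5% of other cells, and in 8.47% of cluster 4 and 11.9% of cluster 5, the type 1-like and type 17-like cells that should have little of it. In cluster 6 the share was 50.6% (39.3% to 61.9%). With all UMIs Tcf7, a factor of early T cell commitment, was found in 93.4% of members (median 4, highest 26), Sox4 in 89.6% (median 3, highest 13) and Lef1 in 79.6% (median 2, highest 38). At 2000 UMIs Tcf7 was in 62.4% of members (55.5% to 69.0%), 57.5% of other cells, 24.9% of cluster 4 and 30.5% of cluster 5. Sox4 was in 51.9% of members (44.9% to 58.8%), 68.2% of other cells, 7.91% of cluster 4 and 7.95% of cluster 5, so it was found less often in the members than in the others. Lef1 was in 42.9% of members (36.1% to 49.8%), 31.8% of other cells, 14.7% of cluster 4 and 7.28% of cluster 5. Cluster 0, the largest cluster, held more of Cd24a and Sox4 than the members at equal depth. Cd24a stood there at 1020 CPM against 460 in the members, and Sox4 at 1347 against 398. Tcf7, at 424 CPM against 526, and Lef1, at 142 against 336, were lower in cluster 0. Dntt, the terminal transferase that acts while receptor genes rearrange, was found in 104 members (49.3%), with a median of 0 and a highest of 12 UMIs. At equal depth it was in 22.4% of members (16.9% to 28.6%), in 25.6% of cluster 1 and in 14.6% of cluster 3.

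Several defining effector genes had few or no UMIs in the members. Il17a had 1 UMI in 1 of 211 members, and at 2000 UMIs it was in 0 of 210 members, while it was in 27.2% of cluster 5. Tbx21 and Ccr6 had none, and Cxcr3 had 1 UMI in 1 member. Ccl5, a chemokine of type 1 cells, was found in 3.81% of members at 2000 UMIs (1.66% to 7.37%), a share like those of cluster 0 (3.64%) and cluster 1 (3.31%) and far under that of cluster 4 (51.4%). Nkg7 was the exception among type 1 markers, in 36.7% of members (30.1% to 43.6%) against 42.7% of all others and 2.65% of cluster 5. It held 262 of the 338 CPM of the type 1 list in the members, and 396 of 916 CPM in the others. The type 1 list shares of the members thus rest largely on this gene.

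Against all other kept thymic cells at equal depth, genes outside the cell cycle were called when their level differed by more than 1.5-fold. Of 4255 genes tested, 654 were higher (15.4%) and 1130 lower (26.6%) in the members. Depth matching gave 548 higher (12.9%) and 704 lower (16.5%). Another reference weighted the other cells by the clusters of the members and so was mostly cluster 3. It gave 349 higher (8.2%) and 596 lower (14%). Of the 654 genes higher against all others, 228 (34.9%) were also higher than in depth-matched cells, and 505 of the 1130 lower genes (44.7%) were also lower. Counting intervals of the members and the depth-matched cells lay apart for 35 and 31 of these. The median log2 ratio over all genes tested was -0.13 against all others, -0.02 against depth-matched and -0.05 against cluster-matched cells. The log2 ratios of a gene are given below in that order. Cycling and RNA content cannot be told apart in the first. The matched references do not fully separate them, because other cells with panel UMIs were deeper. Their median depth was 3072 UMIs with no panel UMI and 6609 with 4. In cluster 3, 42.6% of the other cells had 1 to 4 panel UMIs.

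The genes with the largest higher ratios against all others are given first. Dnajc9, a chaperone of histones H3 and H4, stood at 326 CPM (274 to 386) in the members and 82.6 (76.3 to 89.2) in the others. Its log2 ratios were 1.98, 1.35 and 1.07, and the intervals also lay apart in the depth-matched comparison, 320 CPM (255 to 395) against 125 (93.7 to 171). Tkt, the transketolase that feeds ribose synthesis, gave 1.84, 0.87 and 0.93. Pa2g4, a growth-related RNA-binding protein, gave 1.91, 0.76 and 0.89. Mthfd2, of the mitochondrial folate pathway, gave 1.92, 0.92 and 0.94. The spliceosomal cyclophilin Ppih (1.92, 0.85 and 0.94) and the histone-binding Rbbp7 (1.81, 0.59 and 0.84) were past 1.5-fold against all 3 references. Others depended on the reference. Ppa1, the inorganic pyrophosphatase, gave 2.09, 0.54 and 0.58, Hspd1, the mitochondrial chaperonin, 1.93, 0.54 and 0.88, and the glycolytic Tpi1 1.96, 0.41 and 0.56. Slc29a1, a nucleoside transporter, gave 2.05, 0.80 and 0.40, and 2700029M09Rik 1.94, 0.36 and 0.90. Nrgn, which led cluster 3, gave 1.89, 0.11 and -0.68, so it was higher than in all others but lower than in the cluster-matched cells.

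Lower genes included signalling brakes and effector genes. Ptpre, a tyrosine phosphatase, stood at 14.3 CPM (5.24 to 31.1) in the members and 103 (95.7 to 110) in the others, with log2 ratios of -2.85, -2.02 and -1.63. Pik3ip1, an inhibitor of PI3 kinase, stood at 38.1 CPM (21.8 to 61.9) against 180 (171 to 190), with -2.24, -1.77 and -1.41. Ypel3 gave -2.36, -1.22 and -0.80, the phosphatase Ppm1h -2.04, -2.18 and -0.91, Gm12840 -2.64, -1.51 and -1.13, and Zbtb20 -2.18, -0.94 and -0.65. These 6 genes were past 1.5-fold against every reference. Effector and primed-stage genes differed less once depth was matched. Of these Maf stayed past 1.5-fold throughout, but it rests on 7 UMIs in the thinned members, 16.7 CPM (6.70 to 34.3). Ccl5 gave -3.52, -0.56 and -1.06, Maf -3.05, -0.77 and -0.94, Rgs1 -2.22, -0.34 and -0.73, and S100a6 -2.15, -0.69 and -0.57. Samhd1, which breaks down the nucleotides of DNA, gave -2.51, -0.44 and -1.68. Txk, a Tec-family kinase, gave -2.20, -1.31 and -0.10.

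Biosynthesis lists were higher against all others. Of 23 splicing and RNA export genes tested, 22 were higher and none lower, with a median log2 ratio of 1.07. Nucleotide synthesis had 12 of 14 higher (median 0.83), glycolysis 7 of 10 with 1 lower (0.95), ribosome biogenesis 12 of 20 with 1 lower (0.71), the proteasome 17 of 33 (0.59) and the respiratory chain 24 of 52 with 1 lower (0.57). The share higher over all genes tested was 15.4%. Against depth-matched cells the counts were smaller. Splicing and export had 8 of 23 higher with none lower (median 0.42) and nucleotide synthesis 6 of 14 (0.43), beside 12.9% of all genes. Ribosome biogenesis had 6 higher and 2 lower (0.14), the proteasome 3 and 2 (0.08), glycolysis none and 1 (0.16) and the respiratory chain 1 and none (0.13). Higher against depth-matched cells were Srsf2, a splicing factor, at 575 CPM (488 to 674) against 274 (226 to 334) in depth-matched cells, Hnrnpab at 515 (432 to 609) against 262 (216 to 323), and Lsm3 at 252 (195 to 320) against 126 (93.3 to 173). Shmt2, of serine and folate metabolism, gave log2 ratios of 1.80, 1.15 and 0.68. Gapdh gave 1.23, 0.18 and 0.46.

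Survival and receptor genes are given next. In the Bcl2 family, 5 of 7 genes tested were lower and none higher (median -0.82), and 4 of 7 against depth-matched cells (median -0.59). Both directions of the pathway were among them. The anti-apoptotic Bcl2 stood at 90.5 CPM (64.0 to 124) against 160 (151 to 169), with log2 ratios of -0.82, -1.07 and -1.06, and Mcl1 gave -1.46, -1.33 and -1.23. The pro-apoptotic Bcl2l11 (Bim) gave -1.67, -0.59 and -0.21, and Bbc3 (Puma) -1.69, -0.90 and -0.99. The share lower over all genes was 26.6% and, with depth matched, 16.5%. Of 11 genes induced by T cell receptor signals, 7 were lower and 1 higher (median -0.76), and 5 lower with none higher against depth-matched cells (median -0.57). Egr1 gave -1.77, -1.63 and -0.40 and Dusp2 -1.15, -0.79 and -0.80, while Nr4a1 gave -0.76, -0.17 and 0.12. Cd27, a TNF receptor family member on γδ thymocytes, stood at 293 CPM (243 to 349) against 536 (520 to 553), with -0.87, -0.71 and -0.58. The T cell receptor complex and its kinases had 4 of 14 lower and 2 of 14 with depth matched, shares near those over all genes. Gimap5, of a family of lymphocyte survival GTPases, gave -1.61, -1.40 and -1.38, while the family had 5 of 6 lower and, with depth matched, 1 lower and 1 higher. Receptors and signal genes of the common-γ cytokines had 7 of 10 lower, and 2 of 10 with depth matched.

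Fewer stage genes were past 1.5-fold once depth was matched. Over all genes tested, 15.4% were higher and 26.6% lower against all others, and 12.9% and 16.5% with depth matched. Counts of 1 in a list of 4 or 5 genes are near these shares. Among 14 surface and transcription factor genes tested, 1 was higher and 7 lower against all others, and 1 and 3 against depth-matched cells. Those 4 were Cd44, with log2 ratios of -1.15, 0.98 and 0.04, Itgae with -2.99, -1.10 and -0.59, Bcl11b with -1.19, -0.62 and -0.36, and Id3 with -0.27, -0.64 and -0.81. Cd44 and Itgae rest on 5 and 3 UMIs in the thinned members. Cd24a gave log2 ratios of -0.24, 0.10 and -0.09 and Tcf7 0.13, -0.03 and -0.02. Lef1, at 336 CPM (283 to 396) against 219, gave 0.62, 0.08 and -0.22. Sox4 stood at 398 CPM (340 to 463) against 836 and gave -1.07, -0.24 and -0.35, and Ccr9, a homing receptor of immature thymocytes, gave -1.35, -0.51 and -0.34. Dntt, at 145 CPM (111 to 187) against 88.7, gave 0.71, -0.01 and 0.85. All 6 type 1 genes tested were lower against all others (median -2.20) and 2 of 6 with depth matched (-0.47). The type 17 list had 5 of 5 lower (median -1.29) and then 1 of 5 (-0.02). Of the early immature list 1 gene, Dntt, was higher and 2 of 4 lower, and then 1 of 4 lower. The 2 lower against all others were Cpa3, at 90.5 CPM (64.0 to 124) against 189, and Hes1, at 276 (228 to 331) against 536. The primed list had 3 of 4 lower, and then 1. The transitional list had 2 of 5 lower, and then none.

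**Figure D4:**
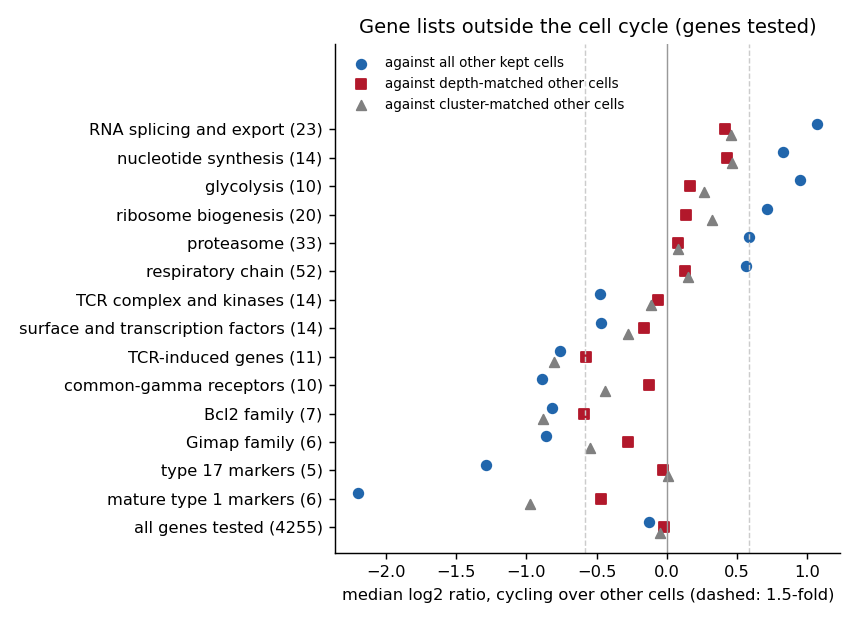
Median log2 ratio of the genes tested in each list (number in brackets), cycling over other kept thymic cells, against all others (blue circles), depth-matched others (red squares) and cluster-matched others (grey triangles). Dashed lines mark 1.5-fold. Splicing and export genes went from 1.07 against all others to 0.42 with depth matched, and the Bcl2 family from -0.82 to -0.59, while the type 17 markers went from -1.29 to -0.02.

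Within the members, S and G2/M cells also differed outside the cell cycle lists. Of 302 genes tested, 42 were higher in S (13.9%) and 34 lower (11.3%). Hsp90ab1, a chaperone, stood at 2677 CPM (2465 to 2902) in S and 1052 (857 to 1278) in G2/M, and Npm1, a nucleolar protein of ribosome assembly, at 2386 (2187 to 2600) and 1010 (819 to 1233). Cdv3, Hspd1 and Atp5g1 were higher in S by 1.73, 1.65 and 1.43 on the log2 scale. In G2/M the cytoskeletal genes Tmsb4x, Vim and Cotl1 were higher. Tmsb4x stood at 9781 CPM (9166 to 10427) against 4386 (4114 to 4672) in S, Vim at 823 (652 to 1026) against 314 (244 to 397) and Cotl1 at 792 (624 to 991) against 300.0 (232 to 382). S100a10 differed by -1.52, and Klf2, a factor of thymic exit, stood at 345 CPM in S (272 to 432) and 875 in G2/M (698 to 1083). Klf2 was the only gene of the transitional list with enough UMIs for this comparison. Cd24a stood at 536 CPM in S (444 to 642) and 323 in G2/M (219 to 458), and Lef1 at 414 (333 to 508) and 208 (127 to 322). Ccr9 ran the other way, at 309 (240 to 392) and 510 (378 to 675), and so did Cd3d, at 636 (535 to 751) and 1083 (885 to 1313). Sox4 differed by -0.18, within its interval of -0.73 to 0.39. Of 15 splicing and export genes 2 were higher in S, and of 32 respiratory chain genes 3.

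Hepatic cycling cells, 35 in all, differed from the thymic ones in their stage genes. Tissue and library cannot be told apart here. Of 538 genes tested, 113 were higher in the thymic cells (21%) and 92 lower (17.1%). Tcf7 stood at 526 CPM (459 to 600) in the thymic and 28.6 (3.46 to 103) in the hepatic cells, Sox4 at 398 and 28.6, Ccr9 at 357 and 28.6 and Lef1 at 336 and 28.6. Cd24a stood at 460 CPM (397 to 529) in the thymic cells and had no UMI in the hepatic ones (0 to 52.7 CPM). With 3 counts put in place of 0 for the hepatic cells, its log2 ratio was 3.42. Effector genes stood the other way. Ccl5 stood at 28.6 CPM (14.8 to 49.9) against 12500 (11685 to 13356), and S100a6, S100a4, Rgs1 and Cd48 gave log2 ratios of -5.32, -5.12, -4.84 and -4.20. Ccl5 stood at 14959 CPM in other hepatic cells and 327 in other thymic cells. Il17a had 529 CPM in the hepatic cycling cells, 165 in the other hepatic cells, 16.7 in other thymic cells and none in the thymic cycling cells. Among biosynthesis genes, glycolysis had none of 7 genes past 1.5-fold (median 0.06), the proteasome 2 higher and 1 lower of 18 (0.01), and splicing and export 3 higher and none lower of 18 (0.39). Ribosome biogenesis had 2 of 3 higher (0.83), nucleotide synthesis 1 of 2 higher (1.11) and the respiratory chain 6 higher and 3 lower of 46 (-0.09).

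**Figure D5:**
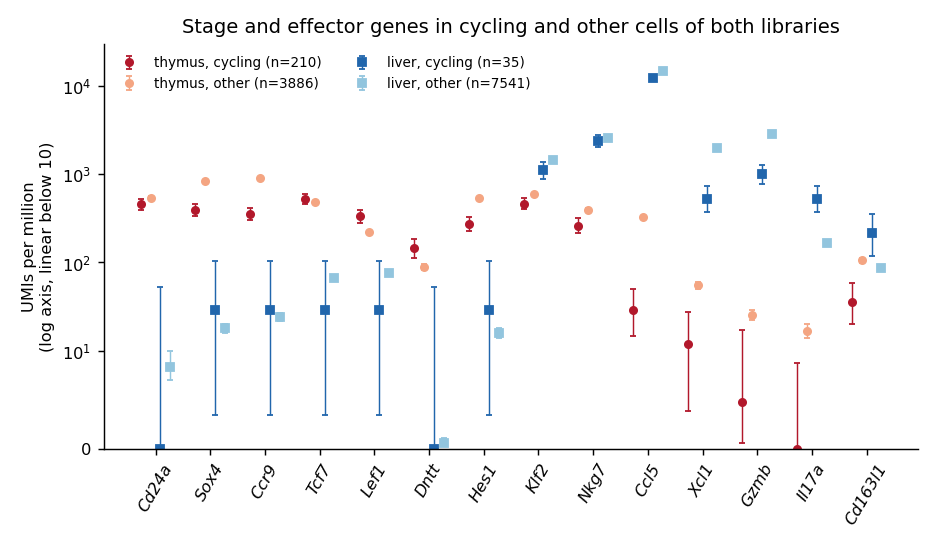
Levels (CPM, log axis that is linear below 10) of stage and effector genes in cycling (dark) and other (light) cells of the thymic (red circles) and hepatic (blue squares) libraries, each cell thinned to 2000 UMIs. Bars are exact Poisson 95% intervals. Cd24a stood at 460 CPM in the thymic and 0 in the hepatic cycling cells, and Ccl5 at 28.6 and 12500.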

How the data were processed

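Single-cell RNA libraries of sorted hepatic and thymic γδ T cells were analysed, 1 per tissue. The values that the authors deposited are UMI counts of each gene in each barcode, not normalized. The submitters' processing notes name Cell Ranger, Seurat 3.0 and build mm10, and the annotation is not given in the sources used here. The thymic library held 17371662 UMIs in 4541 barcodes and the hepatic one 25040963 in 8658. Of the thymic barcodes, 181 had under 800 genes and 10 over 6% mitochondrial UMIs, and 4351 were kept. The study analysed fewer cells than its stated limits leave here, and how those were chosen is not given. The members and the gene lists were chosen with earlier results of these data known.

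Levels are UMIs scaled to a total of 1000000 (CPM) with exact Poisson 95% intervals, those of weighted references gamma intervals, shares carry exact binomial and ratios exact conditional binomial intervals. Cells are not replicates, so no p-value was computed. Cells were thinned to 2000 UMIs (seed 11), which left out 1 member and 254 others. A gene needed 200 thinned UMIs over both groups, or 100 in comparisons among members or between tissues, and was called past 1.5-fold. Genes of the cell cycle lists (518), mitochondrial and ribosomal-protein genes (126) were left out. Named genes are those of the lists, and the 12 largest ratios each way among genes that reach 100 CPM in either group (5 in the smaller comparisons). Other thymic cells were clustered with the Leiden algorithm at resolution 0.6 on 2000 variable genes, 30 principal components and 20 neighbours. A cluster was named where the mean log2 ratio of a marker list, with 10 CPM added, reached 0.5 and led the next list by 0.2, and was called immature where the 2 immature lists led together. Cells were assigned by multinomial likelihood. The values of 1 marker of the transitional list and 1 leading gene of cluster 3 are not reported here. Doublets were kept, since Scrublet has not worked here, and an alternative left out the top 5% of scores. Python 3.11.15, numpy 2.4.6, scipy 1.17.1, pandas 2.3.3, scikit-learn 1.9.0, igraph 0.11.9, scanpy 1.11.5 and matplotlib 3.10.9 were used, and the comparisons were tested on simulated data. RefSeq promoters cover 250 bases before the start.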

Additional observations from a re-analysis of the deposited data

How the results depend on the processing

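No paired analysis was possible because each tissue has 1 library. The share of cycling cells was 6.44% with a panel minimum of 3 UMIs, 3.79% with 8 and 2.64% with the panel counted after thinning, beside 4.85% as reported. The S share of 52.1% was 62.1% with limits of 60% and 40%, 37.4% with each list scaled to its mean, and 67.3% with scanpy's scores, and the G2/M share of 22.7% was 29.4% and 31.8% under the first and last of these. No member was placed in a mature cluster in most settings, but 8.10% were with 20 principal components and 22.4% when cells were assigned by stage lists alone. The cluster with most members held 69.5% of them at resolution 0.4, 61.4% at resolution 1, 85.2% with 20 components and 78.0% with a panel minimum of 8. Immature clusters took 55 of 210 members at resolution 0.4, beside 7 as reported. Against other thymic cells, 654 genes were higher, and 227 with a 2-fold limit, 307 with a minimum of 500 UMIs and 349 with cluster weighting. The 1130 lower genes became 524, 516 and 596, and 704 with depth matching. Between S and G2/M cells (42 higher, 34 lower), 11 and 8 genes passed a 2-fold limit, and 218 and 201 passed 1.5-fold with all UMIs, where more genes were tested. Between tissues (113 and 92) these counts were 47 and 56, and 641 and 394. Nrgn reversed to -0.68 under cluster weighting. Of the other settings of named genes, 213 left the call as it was and 13 took it under the limit. With 48 G2/M members and 35 hepatic cells, 302 genes reached the minimum of 100 UMIs between S and G2/M and 538 between tissues, and genes under it could not be compared.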
